A study of Mus musculus with 3 samples.

Results

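GLI3 binding was examined around 8 genes: the LIM homeobox genes Lmx1b, Lmx1a, Lhx1, Lhx2, Lhx3, Lhx9 and Isl1, and Ldb1, which encodes the cofactor that LIM homeodomain proteins share. A peak was assigned to a gene when its summit lay within 200 kb of an annotated transcription start site (TSS) of that gene in mm10. Of 17149 listed peaks, 66 met this rule, which used the position of the summit and not its enrichment or FDR. The genes were chosen with earlier results of these data known. The peaks came from chromatin immunoprecipitation and sequencing (ChIP-seq) of GLI3, a transcription factor of the Hedgehog pathway, in forelimb buds of mouse embryos at E10.5 (32 to 35 somites). The mice carried a FLAG tag on the endogenous Gli3 gene and had a mixed strain background, while the genotype label reads wild type. The libraries were 2 GLI3-FLAG ChIP replicates and 1 input, and each ChIP pooled limb buds of 2 litters. The limb buds were not divided by region and no mutant was included, so cells with and without Hedgehog signaling were mixed and binding is not resolved by cell type. The list of peaks, taken as a joint call of both replicates, holds no values per replicate, so no value below has a replicate error and no difference was tested.

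LIM homeodomain proteins bind DNA through a homeodomain and bind other proteins through paired LIM domains. Ldb1 holds these domains together and bridges them into larger complexes. In the limb bud, Lmx1b gives the dorsal mesenchyme its identity, Lhx2 and Lhx9 act in distal mesenchyme in response to fibroblast growth factors from the apical ectodermal ridge, and Isl1 is best known for starting the hindlimb. Lhx1 is known for head and kidney development, Lhx3 for the pituitary and motor neurons, and Lmx1a for the roof plate and midbrain dopaminergic neurons. GLI proteins turn Hedgehog signaling into changes of transcription, and GLI3 acts largely as a repressor in limb cells that receive no Hedgehog signal.

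The GLI consensus GACCACCCA, which reads TGGGTGGTC on the opposite strand, was searched for within 250 bp of each summit on both strands. A GLI motif match had no more than 1 base different from it. Only 3 of the peaks under the study's threshold, a false discovery rate (FDR) below 0.05, had such a match. They are shown because a GLI-like sequence lay close to the summit of an enriched peak there. The matches are in capitals with 15 bases on each side, on the plus strand of mm10. All 3 matches read in the direction of the consensus on the minus strand.
Lmx1b, 67.8 kb upstream, chr2:33708261-33708299: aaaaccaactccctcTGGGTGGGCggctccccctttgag
Lhx1 promoter, chr11:84525889-84525927: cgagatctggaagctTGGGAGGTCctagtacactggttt
Gpsm1 promoter, 106.2 kb upstream of Lhx3, chr2:26314351-26314389: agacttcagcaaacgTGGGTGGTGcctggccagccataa
Counted from 1 at the 5′ end of the consensus, the Lmx1b site differed by A2C, the Lhx1 site by A5T and the Gpsm1 site by G1C. Their centres lay 12 bp, 44 bp and 127 bp from the summits.

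The most enriched peak near any of the 8 genes lay 60.4 kb upstream of Lmx1b and held no GLI motif match. The 75 bases on either side of its summit are set here beside those of the peaks at the Lmx1b and Isl1 promoters, with CpG dinucleotides in capitals, as examples of a distal and of promoter summits. All are on the plus strand of mm10.
Lmx1b, 60.4 kb upstream, chr2:33700812-33700962: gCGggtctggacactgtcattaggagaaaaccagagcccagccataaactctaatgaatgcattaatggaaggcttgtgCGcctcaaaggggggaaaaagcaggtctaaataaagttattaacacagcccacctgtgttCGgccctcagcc
Lmx1b promoter, chr2:33641047-33641197: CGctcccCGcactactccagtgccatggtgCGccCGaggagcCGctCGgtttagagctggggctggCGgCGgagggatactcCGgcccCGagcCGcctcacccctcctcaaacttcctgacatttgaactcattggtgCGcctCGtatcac
Isl1 promoter, chr13:116309832-116309982: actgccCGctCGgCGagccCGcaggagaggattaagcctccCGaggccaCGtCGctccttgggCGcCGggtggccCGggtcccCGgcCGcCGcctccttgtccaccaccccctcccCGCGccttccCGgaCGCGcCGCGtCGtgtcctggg
The distal window held 3 CpG at a GC content of 49.0%. The Lmx1b promoter window held 13 at 64.9%, and the Isl1 promoter window held 21 at 76.8%. Not all distal peaks were like the one shown. Within 250 bp of the summit, the 14 distal peaks under the threshold ran from 45.1% to 70.1% GC and 7 of them had a CpG island, against 56.1% to 80.2% and 17 of the 18 promoter peaks.

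Other summits near these genes held the homeodomain core TAATTA, the kind of sequence that LIM homeodomain proteins themselves bind. The core reads the same on both strands. The peak 65.6 kb upstream of Lmx1b held 3 copies and the peak in an Lhx2 intron held 1, shown in capitals on the plus strand of mm10.
Lmx1b, 65.6 kb upstream, chr2:33705963-33706261: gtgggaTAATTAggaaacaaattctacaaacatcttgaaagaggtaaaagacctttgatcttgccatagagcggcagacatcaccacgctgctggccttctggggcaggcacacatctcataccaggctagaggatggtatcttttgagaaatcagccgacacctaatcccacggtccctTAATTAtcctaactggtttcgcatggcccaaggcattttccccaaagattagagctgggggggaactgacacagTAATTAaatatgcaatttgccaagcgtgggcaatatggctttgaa
Lhx2 intron, chr2:38347987-38348137: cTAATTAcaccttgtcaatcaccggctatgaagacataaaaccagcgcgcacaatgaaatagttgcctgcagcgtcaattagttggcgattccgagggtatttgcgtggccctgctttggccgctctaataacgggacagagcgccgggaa

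Of the 66 listed peaks near the 8 genes, 32 had an FDR under 0.05 (48.5%, 95% Wilson interval 36.8 to 60.3), beside 42.5% of the whole list. This interval covers counting error over peaks only, and neighbouring peaks are not independent. The share near the 8 genes was thus close to that of the list. All 8 genes had at least 1 peak under the threshold within 200 kb, as did 67.1% of all 21938 protein-coding genes. Where a peak was counted only for the gene with the nearest coding TSS, 7 of the 8 had one, beside 21.5% of protein-coding genes. Lmx1a was the exception. The 21.5% does not allow for how many coding neighbours a gene has. The contrast was not tested, since the 8 genes were chosen with earlier results of these data known.

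The 200 kb windows took in many peaks of other genes. A member had the nearest coding TSS for 42 of the 66 listed peaks, and another gene had it for 24. Among the 32 peaks under the threshold, 16 were nearest to a member and 16 to another gene. Of the 16 nearest to another gene, 12 lay at promoters, counted as 2 kb before to 1 kb after a coding TSS. Only 6 of the 16 nearest to a member did. Peaks nearest to another gene were under the threshold in 66.7% of cases (46.7 to 82.0), against 38.1% (25.0 to 53.2) of those nearest to a member.

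**Figure D1:**
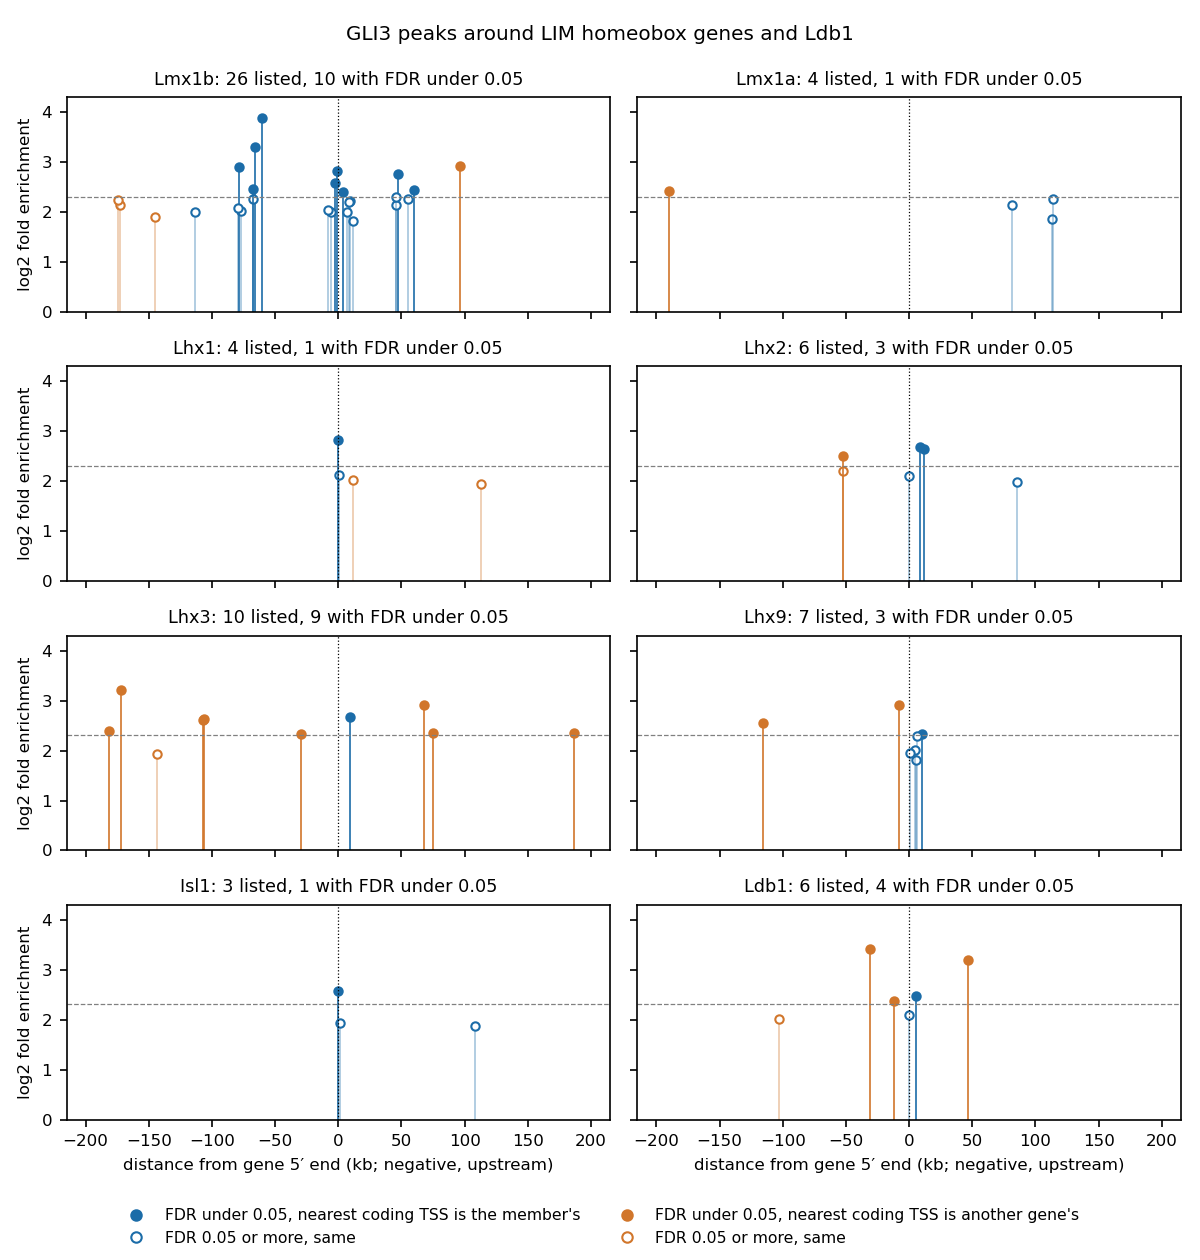
Listed GLI3 peaks within 200 kb of each of the 8 genes. The horizontal axis is the distance of the summit from the gene's 5′ end in kb, in the direction of transcription, and the vertical axis is the maximum log2 fold enrichment of ChIP over input; filled points have an FDR under 0.05, blue points have the member as the nearest coding gene, orange points have another gene, and the dashed line is a log2 of 2.31, the level at which the FDR passes 0.05. Lmx1b has the most points, with a group 60 to 80 kb upstream that reaches 3.88, while the tallest points of Lmx1a, Lhx3, Lhx9 and Ldb1 are orange.

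Lmx1b, the dorsal determinant of the limb, held 26 of the 66 listed peaks and 10 of the 32 under the threshold. Of its 26 listed peaks, 38.5% (22.4 to 57.5) were under the threshold, close to the 42.5% of the whole list. The median protein-coding gene had 4 listed peaks and 1 under the threshold within 200 kb, and 0.602% and 2.57% of genes reached the counts of Lmx1b. For 22 of its 26 peaks Lmx1b was itself the gene with the nearest coding TSS. Only 11 of 21938 protein-coding genes (0.0501%), Lmx1b included, were nearest to that many listed peaks. For the peaks under the threshold the count was 9, reached by 26 genes (0.119%).

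Lmx1b lies in a gene-poor stretch, with 2 other coding genes within 200 kb of its starts. Genes with wide empty flanks can collect more peaks as the nearest gene, so Lmx1b was also set beside the 3414 genes with at most 2 coding neighbours. In this group 5 genes (0.146%) had 26 or more listed peaks within 200 kb, and 14 (0.41%) had 10 or more under the threshold. As the nearest gene, 9 of them (0.264%) had 22 or more listed peaks and 18 (0.527%) had 9 or more under the threshold. Lmx1b was thus among the genes with the most GLI3 peaks by either way of counting.

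The highest Lmx1b peaks stood far upstream of the gene. Between 60.4 and 79.1 kb upstream, 7 listed peaks lay within 18.7 kb, and 4 of them were under the threshold. Each of these 4 had the other 3 within 20 kb. Of all listed peaks under the threshold, 8.24% had at least 3 such neighbours within 20 kb. The peak at 60.4 kb (chr2:33700600-33701849) ranked 332 in the list, with a log2 fold enrichment of 3.88 and a −log10 Poisson p of 43.5. At 1250 bp it was also the longest of the 66. The peak at 65.6 kb (chr2:33705850-33706599), whose 3 homeodomain cores are shown above, ranked 1126 with a log2 of 3.30. The peak at 67.8 kb, with the GLI match shown above, was weaker at a log2 of 2.46 and ranked 5596. The outermost under the threshold, at 78.5 kb, had a log2 of 2.90. All 4 were intergenic, and the motif match fell in the lowest of them. Limb enhancers upstream of Lmx1b are known from other work, and their overlap with these peaks was not examined here.

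Farther upstream, from 113.4 to 174.3 kb, 4 more peaks were listed and 0 of them passed the threshold, with log2 values from 1.89 to 2.24. These 4 lay inside Mvb12b, the neighbouring gene, and 1 of them had a GLI match, 87 bp from its summit. The far upstream signal under the threshold was therefore limited to the group at 60 to 80 kb.

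Around the Lmx1b starts, 9 peaks were listed within 10 kb and 3 were under the threshold. The promoter peak, 0.6 kb upstream of the gene's 5′ end, had a log2 of 2.82 and ranked 2833. A peak 2.2 kb upstream, in an intron of the antisense transcript C130021I20Rik, had a log2 of 2.58. A peak in an Lmx1b intron 3.7 kb downstream had a log2 of 2.41. None of the 9 had a GLI match. The promoter peak was thus lower than 4 other Lmx1b peaks, which lay 60.4, 65.6 and 78.5 kb upstream and 96.1 kb downstream of the 5′ end.

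Downstream, 6 peaks lay 37.2 to 87.8 kb from the nearest Lmx1b start, and 3 were under the threshold. An intronic peak (chr2:33592900-33593549) had a log2 of 2.76 and a −log10 Poisson p of 31.6, the second largest at Lmx1b. Another intronic peak had a log2 of 2.45 and held a homeodomain core. The last (chr2:33543850-33544549), with a log2 of 2.93, was intergenic beyond the 3′ end of Lmx1b and nearer to a start of Zbtb43, at 75.9 kb. The intronic peak at 2.76 and the intergenic peak had no GLI match near their summits but had 2 and 1 in the rest of the peak.

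Lmx1a, the close relative of Lmx1b, had 4 listed peaks. The 1 under the threshold lay 190.0 kb upstream, nearest to Lrrc52, with a log2 of 2.42. The other 3 were in Lmx1a introns at log2 values of 1.85, 2.14 and 2.27, all with an FDR of 0.05 or more. No listed peak lay at its promoter, and 0 peaks under the threshold had Lmx1a as the nearest coding gene. Its peak at 190.0 kb was also the last inside the 200 kb limit, and the first peak outside the limit for any member was 201.4 kb from Lmx1b with a log2 of 1.93.

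Lhx2 and Lhx9, the pair with a shared role in distal limb mesenchyme, had 6 and 7 listed peaks and 3 each under the threshold, a count that 35.1% of all protein-coding genes and 14.5% of those with at most 2 coding neighbours reached. At Lhx2, the intronic peak with the homeodomain core shown above had a log2 of 2.69 and lay 2.7 kb before the nearest start. A peak at the internal promoter, 0.4 kb past that start, had a log2 of 2.65. The first Lhx2 promoter had a listed peak that missed the threshold, with an FDR of 0.244. The other peak under the threshold, at 2.51, was at the promoter of Dennd1a. The enrichment under the threshold at Lhx2 was thus at the internal part of the gene.

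At Lhx9, 5 peaks had the gene as their nearest, and all lay within its first 10.2 kb. Only the innermost, in an intron, passed the threshold, at a log2 of 2.33 and an FDR of 0.0374. The other 4 had log2 values of 1.82, 1.96, 2.01 and 2.30. The gene's highest peak by the distance rule, at 2.92 (rank 2402), lay 8.1 kb upstream at the promoter of 2310009B15Rik, and another at 2.56 lay at the promoter of Dennd1b. Enrichment under the threshold nearest to Lhx9 itself was thus limited to 1 intronic peak close to the threshold.

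Isl1 had no other coding gene within 200 kb and 3 listed peaks. The 1 under the threshold lay 0.2 kb before its start, with a log2 of 2.57 (rank 4551). The others had log2 values of 1.94 and 1.87. Among the 3414 genes with at most 2 coding neighbours, 45.9% had at least 1 peak under the threshold within 200 kb, so the count for Isl1 was not unusual.

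Lhx1 had its highest peak at its own promoter, 0.4 kb upstream in an intron of the noncoding transcript Lhx1os, with a log2 of 2.83 (rank 2796). This is the peak with the GLI match shown above. Lhx1 had 3 other listed peaks, at 2.13 in its own UTR, 2.03 at the Aatf promoter and 1.94 between genes, none under the threshold. Lhx1 was the only 1 of the 8 genes with a peak under the threshold and a GLI match at its promoter.

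Lhx3 had the highest share of peaks under the threshold, 9 of 10, but was the nearest gene for 1 of them. Its surroundings hold 11 other coding genes, and 6 of the 9 peaks lay at promoters of Ubac1, Qsox2, Gpsm1, Snapc4 and Pmpca. The highest, at the Snapc4 promoter 172.3 kb away, had a log2 of 3.22 (rank 1285). The peak nearest to Lhx3 had a log2 of 2.68, ranked 3739 and lay beyond the 3′ end of the gene, with 1 homeodomain core. Among the 12142 genes with 7 or more coding neighbours, 5.9% had 9 or more peaks under the threshold within 200 kb.

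Ldb1 likewise lies among many genes, with 7 coding neighbours, and had 6 listed peaks of which 4 were under the threshold. As many or more were found at 24.4% of all protein-coding genes and 35.0% of those with 7 or more coding neighbours, so the count was not unusual. All 6 lay at promoters. The highest were at the promoters of Nolc1, with a log2 of 3.42 (rank 890), and Armh3, with 3.20. Ldb1's own promoters had a peak under the threshold at 2.48 (rank 5382) and a weaker one at 2.09 with an FDR of 0.251. The peak at 2.48 lay at an internal start, 5.5 kb downstream of the gene's 5′ end. The cofactor's own promoter was therefore lower than those of its neighbours Nolc1 and Armh3.

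**Figure D2:**
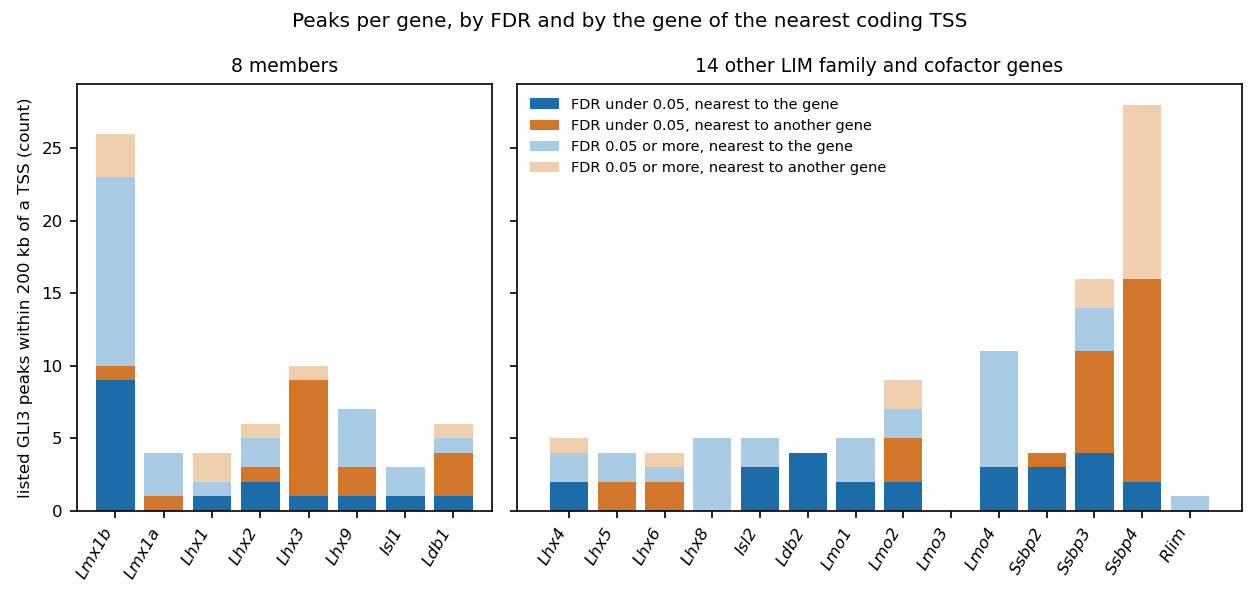
Number of listed GLI3 peaks within 200 kb of a TSS, for the 8 genes (left) and for 14 other LIM family and cofactor genes (right). Dark colours are peaks with an FDR under 0.05, pale colours the rest, blue peaks are nearest to the gene and orange peaks to another gene; Lmx1b stands at 26 with 22 of its own, while Lhx3 and Ssbp4 are mainly orange.

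The other LIM homeobox genes and partners had 101 listed peaks in all. Among the LIM homeobox genes, Isl2 had 3 peaks under the threshold, Lhx4, Lhx5 and Lhx6 had 2 each, and Lhx8 had 0 of 5. Lhx4 and Isl2 were the nearest gene for theirs, and Lhx5 and Lhx6 for 0 of theirs. Ldb2, the second LIM-domain-binding cofactor, had 4 of 4, all nearest to it, with its highest at a log2 of 3.16. Lmo proteins carry LIM domains without a homeodomain: Lmo4 had 3 of 11 under the threshold, Lmo2 had 5 of 9, Lmo1 had 2 of 5 and Lmo3 had none listed. Rlim, a ubiquitin ligase that targets Ldb cofactors, had 1 listed peak and 0 under the threshold.

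Of the single-stranded DNA-binding proteins that partner Ldb1, Ssbp2 and Ssbp4 were the nearest gene to peaks higher than any of the 66. Ssbp2 had 4 of 4 under the threshold, including rank 62 at a log2 of 4.62. Ssbp4 had 16 of 28, of which 2 were nearest to it, including rank 108 at a log2 of 4.37 at 0.8 kb from its start. Ssbp3 had 11 of 16, of which 4 were nearest to it. Its highest by distance, at 4.01, was nearest to Acot11, and the highest nearest to Ssbp3 had a log2 of 3.81, below the 3.88 at Lmx1b. Ssbp4 has 23 coding neighbours, and most of its peaks were those of other genes.

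**Figure D3:**
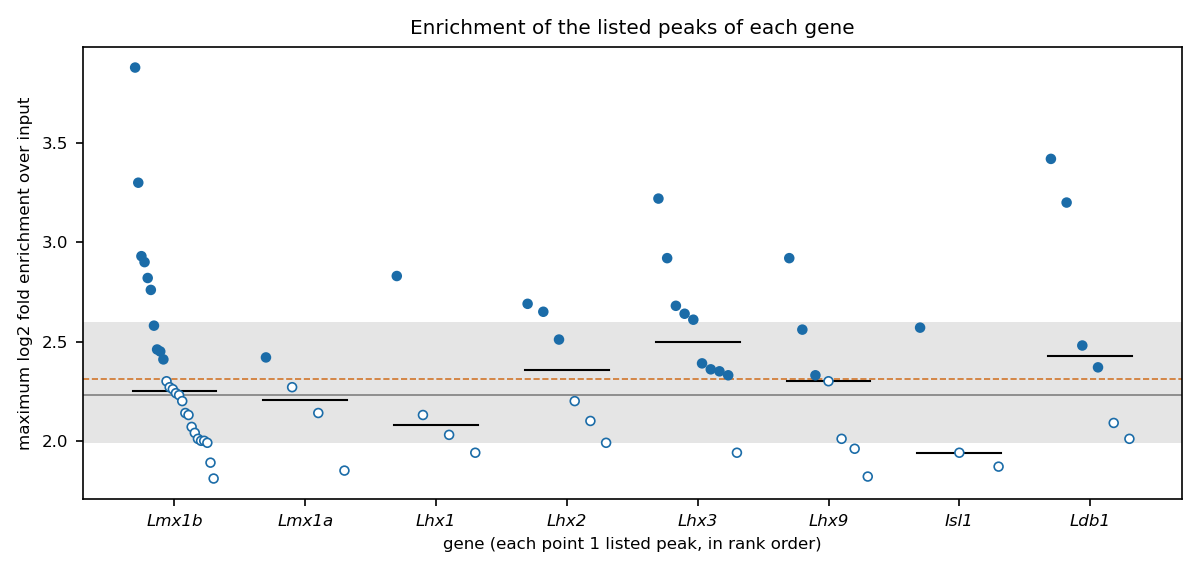
Maximum log2 fold enrichment over input of each listed peak, by gene and in rank order from left to right. Filled points have an FDR under 0.05, black bars are medians, the grey band and line are the quartiles and median of the whole list (1.99, 2.23 and 2.60) and the dashed line is 2.31; most points lie within or near the band, and only peaks of Lmx1b, Lhx3 and Ldb1 exceed 3.

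The enrichment of the listed peaks was close to that of the list. The median log2 fold enrichment was 2.30 (interquartile range 2.03 to 2.60, range 1.81 to 3.88), beside 2.23 (1.99 to 2.60) in the whole list. Under the threshold the medians were 2.62 near the 8 genes and 2.69 in the list. By gene, the median ran from 1.94 at Isl1 to 2.50 at Lhx3. At the top of this order were Lhx3 and Ldb1 (2.42), for which 7 of 10 and 4 of 6 listed peaks lay at promoters of other genes.

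Promoter overlap varied widely among the 8 genes. Near the 8 genes 45.5% of listed peaks (34.0 to 57.4) overlapped a promoter, beside 48.1% of the list. At Lmx1b the share was 7.69% (2.14 to 24.1), or 2 of 26, and at Lmx1a it was 0 of 4. At the 7 genes other than Lmx1b, Lmx1a included, it was 70.0% (54.6 to 81.9). CpG islands within 250 bp of the summit followed, at 9 of 26 Lmx1b peaks (34.6%) and 32 of 40 at the other genes, beside 57.2% of the list. The near-average share for the 8 genes was thus a mixture of 2 genes with mainly distal peaks, Lmx1b and Lmx1a, and 6 genes whose windows held mainly promoter peaks, their own or those of neighbours.

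Within 250 bp of the summit, GLI motif matches were found at 4 of 66 peaks (6.06%, 2.38 to 14.6), beside 17.9% of the list. The share of the list lay above this interval, which covers counting error over peaks only, and this difference was not tested. Under the threshold the shares were 9.38% (3.24 to 24.2), or 3 of 32, and 20.8%, and the interval for the 32 peaks includes the share of the list. Within 100 bp of the summit they were 4.55% (1.56 to 12.5) of the 66 peaks and 9.43% of the list, again inside the interval, and the difference was not tested. Windows 2 kb to either side of the same 66 summits held a match in 16 of 132 cases (12.1%, 7.6 to 18.8), beside 10.6% around all listed summits. The exact consensus occurred at 0 of 66 peaks, an interval of 0 to 5.5%, and at 2.17% of the list. For the 66 peaks the intervals at the summit and 2 kb away overlapped, and for the 32 under the threshold both shares were 9.38%. The flanking windows belong to the same summits, and a difference between summits and flanks was not tested. A missing match says only that these letters are not in the window.

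The homeodomain core was found at 8 of 66 peaks (12.1%, 6.27 to 22.1), beside 12.5% of the list. Of these 8, 5 were at Lmx1b and 1 each at Lmx1a, Lhx2 and Lhx3, and all had the member as the nearest coding gene. Among peaks under the threshold it was in 5 of 14 distal peaks (35.7%, 16.3 to 61.2) and 0 of 18 promoter peaks, beside 20.8% and 3.06% in the list. The wide interval for the 14 distal peaks includes the share of the list.

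**Figure D4:**
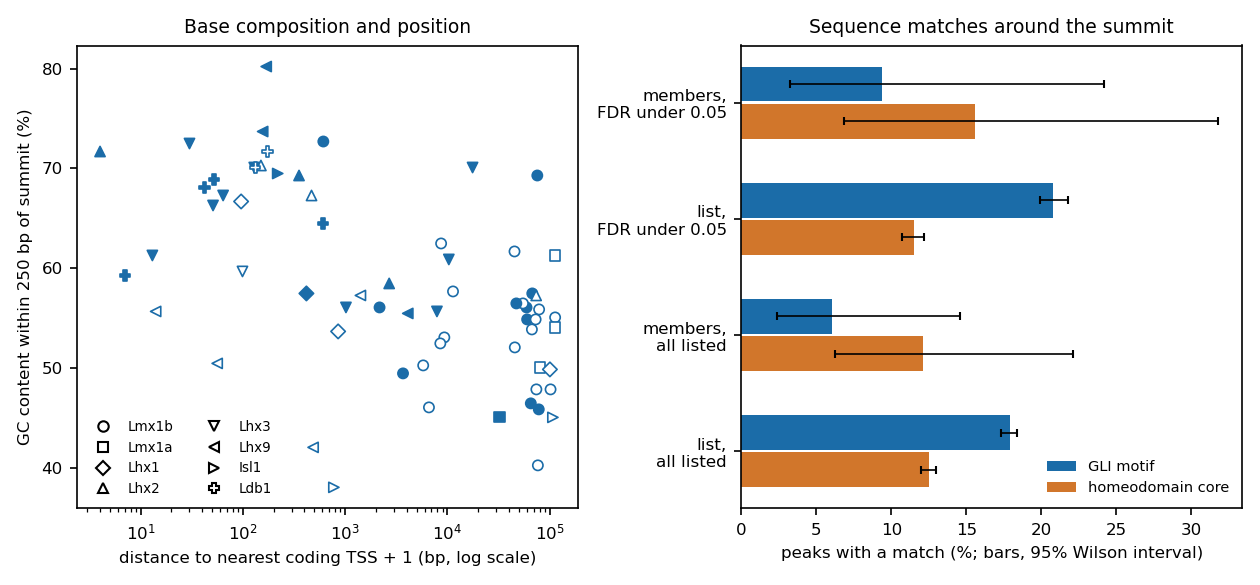
Left, GC content within 250 bp of each summit against the distance to the nearest coding TSS plus 1 (bp, log scale), with a symbol for each gene and filled symbols for an FDR under 0.05. Right, percentage of peaks with a GLI motif match or a homeodomain core in the same window, with 95% Wilson intervals; for the GLI motif the 66 peaks stand at 6.06% against 17.9% of the list, and for the homeodomain core at 12.1% against 12.5%.

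In the 300 bases around annotated RefSeq starts, a peak under the threshold overlapped the promoters of Lmx1b, Lhx1 and Isl1, the internal promoter of Lhx2 and 1 of 3 promoters of Ldb1. These were 5 of 12 windows, beside 9.99% of all 32851 mouse windows of this length, and windows of 1 gene are not independent. The promoter of Lhx9, the first of Lhx2 and another of Ldb1 had a listed peak with an FDR of 0.05 or more. Neither Lmx1a nor Lhx3 had a listed peak there. A GLI motif match was present in 1 of the 12 windows, that of Lmx1a, beside 6.74% of all the windows. The Lmx1a window had no listed GLI3 peak. The GLI match at the Lhx1 promoter described above lay farther upstream than the 300 bases of the Lhx1 window.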

How the data were processed

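GLI3-FLAG ChIP-seq was done on E10.5 forelimb buds (2 ChIP replicates, 1 input). Per the labels and the methods of the study, the authors used Bowtie2 2.2.5, mm10 and CisGenome 2.1.0. The list was treated as a joint call of both replicates, which the file does not state. It holds 7282 peaks with an FDR under 0.05, the same number of GLI3 binding regions that the study reports at this threshold from 2 biological replicates. The deposited values are an FDR (a q-value), the maximum log2 fold enrichment against input, a T score that sets the rank, a −log10 Poisson p-value (at most 100) and the peak length in bp. Since no replicate values or read totals are given, no error or depth can be attached to a peak.

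Summits were measured to all TSSs of the 8 genes in GENCODE M21. Nearest genes and promoters used the basic protein-coding transcripts. Sequences came from GRCm38.p6 (mm10), in which 0 peak ends lay beyond a chromosome end, and promoters of all 8 genes (12 windows) from RefSeq. CpG islands were 200 bp windows in which GC made up at least 0.5 of the bases and observed over expected CpG exceeded 0.6. Shares have 95% Wilson intervals. Genes named are the 8, 14 further LIM family and cofactor genes, and genes nearest to or containing a described summit. The genes and lists were chosen with earlier results of these data known, so no list was tested. Alternatives changed the distance, TSS set, FDR, promoter window, motif and ranking. Scripts ran in Python 3.11.15 with pandas 2.3.3 and were tested on simulated data.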

Additional observations from a re-analysis of the deposited data

How the results depend on the processing

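No paired analysis was possible because replicates have no values of their own in these data, and for the same reason no replicate could be left out. Widening the distance to 500 kb gave 126 listed peaks and 57 under the threshold in place of 66 and 32. Counting only peaks with a member as the nearest coding gene gave 42 and 16. An FDR under 0.01 left 20 peaks, or 30.3% in place of 48.5%. The median log2 fold enrichment was 2.62 in place of 2.30 over peaks with an FDR under 0.05, which follows from leaving out the lower peaks. The GLI motif share was 0% in place of 6.06% with the exact consensus. Leaving out Lmx1b, a choice made after seeing the data, moved the promoter share from 45.5% to 70.0%. The other 27 recalculated values stayed within 1.5 times the main count, within the 95% Wilson interval of the main share, or, for the median, within its 95% interval from the ranked peaks (2.14 to 2.42). Between 7 and 8 of the genes had a peak under the threshold in every setting that was run for this count, which changed the FDR, the distance or the nearest-gene rule. Ranking by the Poisson p changed the best peak of Lmx1a only. The missing replicate spread also limits these values: a peak near a log2 of 2.31 could fall on either side of the threshold in another experiment.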
